A study of Mus musculus with 6 samples.

Results

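The genes described here are outputs and brakes of the JAK-STAT pathway in Ba/F3 cells: the PIM kinase genes Pim1, Pim2 and Pim3, the SOCS family genes Cish, Socs1, Socs2 and Socs3, and the transcription factor genes Stat5a, Stat5b and Stat3. They were taken by name, with all 25 probe sets that the platform annotation gives to these 10 genes, out of 45101 probe sets for 18193 named genes on the array. Ba/F3 is a mouse haematopoietic line, in general use as a pro-B line that depends on interleukin 3. All cells carried a retrovirally delivered Tet-on construct for NCOR1-LYN, a fusion of a nuclear corepressor with the SRC family kinase LYN. The 3 control arrays came from cells without doxycycline (replicates 1, 2 and 3), and the 3 NCOR1-LYN arrays from cells given doxycycline (replicates 1, 2 and 3). The drug and the fusion protein therefore cannot be told apart. Whether the cells were 1 clone or a mixed culture, how long they were induced and how much cytokine they received are not given in the sources used here. Cultures were made in triplicate and nothing more is said of their independence, so the p-values speak only of how far these arrays scatter. In such bulk RNA, a change in the share of a cell state and a change in RNA per cell cannot be told apart.

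Interleukin 3 binds a receptor whose common beta chain carries the kinase JAK2. JAK2 phosphorylates STAT5, which pairs up, enters the nucleus and switches on its targets. Among these are the PIM kinases, which promote survival and protein synthesis and need no activation step beyond their own expression, and Cish and the SOCS genes, whose proteins bind the receptor or the kinase and damp the signal. The mRNA of a PIM or SOCS gene is therefore read as an output of the pathway, while STAT proteins themselves are controlled mainly by phosphorylation, which arrays do not measure.

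Dimers of STAT5 and STAT3 recognise an inverted repeat, TTCNNNGAA, which reads the same on both strands. RefSeq promoter windows (GRCm38.p6, 250 bases before to 50 after a transcript start) were on hand for 9 of the 10 genes, in 12 windows. Only the windows of Cish and Socs3 held the repeat. Of all 32851 windows of that length, 8.3% held it at least once and 0.457% held it more than once. The stretches with the repeat are shown because Cish was among the genes that changed. Capitals mark the repeat, and the Pim2 stretch is given beside them as the last 120 bases before the start of the gene with the largest change.
Cish, chr9:107296654-107296683, plus strand: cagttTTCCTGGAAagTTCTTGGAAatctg
Socs3, chr11:117969501-117969530, minus strand: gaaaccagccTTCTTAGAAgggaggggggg
Pim2, chrX:7878186-7878305, plus strand: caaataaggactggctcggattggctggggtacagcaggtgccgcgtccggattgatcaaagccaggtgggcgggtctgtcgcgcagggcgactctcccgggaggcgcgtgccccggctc
The 2 copies in Cish do not overlap and lie at bases 1 to 9 and 12 to 20 counted from the annotated start, and the Socs3 copy lies 154 to 146 bases before its start. The windows of Pim1, Pim2, Pim3, Socs1, Stat5a, Stat5b and Stat3 held no match, nor did any of the 12 windows match the wider-spaced TTCNNNNGAA, found in 6.95% of all windows. A match is a run of letters, and no binding was measured in these samples.

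Signals are MAS5 values on a linear scale, each array scaled by the authors, and changes are differences of log2(signal + 64), which understates changes of dim probe sets. Median signals of the arrays ran from 54.8 to 61.9. Replicate 1 of both groups stood apart from the other arrays, at −37.2 and −24.9 on the first principal component against 12.02 to 18.6. The comparison between groups was fitted with limma without and with the replicate number as a block, and the change is also given for each same-numbered pair of arrays. The numbers 2 and 3 were not seen to pair arrays: across genes, replicate 2 minus replicate 3 in controls correlated at −0.03 with the same difference in NCOR1-LYN cells, so the block mainly takes up the difference of replicate 1. For each gene the probe set with the highest mean stands for the gene unless another is named.

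With NCOR1-LYN, Pim2 and Cish stood higher in every pair, by about the same factor in each pair for Pim2, while the other 8 genes passed an adjusted p of 0.05 in neither fit. Without a block, 0 of the 10 genes passed an adjusted p of 0.05 in limma, 2 of them (Pim2 and Cish) had an unadjusted p under 0.05, and 0.0824% of the 10916 genes tested were called, with 4.75% at an unadjusted p under 0.05. With the block, 2 of the 10 rose (Pim2 and Cish) and 0 fell in limma, against 0.266% of all genes called as higher and 0.559% called as lower. At an unadjusted p under 0.05 the blocked fit had 4 of the 10 (Pim2, Cish, Socs1 and Stat3), against 11.3% of all genes. A block that only set replicate 1 against replicates 2 and 3, tried after the data were seen, also called Pim2 and Cish alone among the 10 (limma adjusted p = 0.00014 and 0.00467), with 2.4% of all genes called. Of the 10 genes 6 were higher in all 3 pairs (Pim2, Pim3, Cish, Socs1, Stat5b and Stat3), against 15.9% of all genes, and 0 were lower in all 3 pairs, against 18.9% of all genes. The median log2 fold change of the 10 genes was 0.17, against −0.01 over all genes tested. Without the pair of replicate 2 the blocked fit called 0 genes over the whole array, and without the pair of replicate 3 it still called Pim2 and Cish. Values in all arrays are shown in the plot of signals by replicate.

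**Figure D1:**
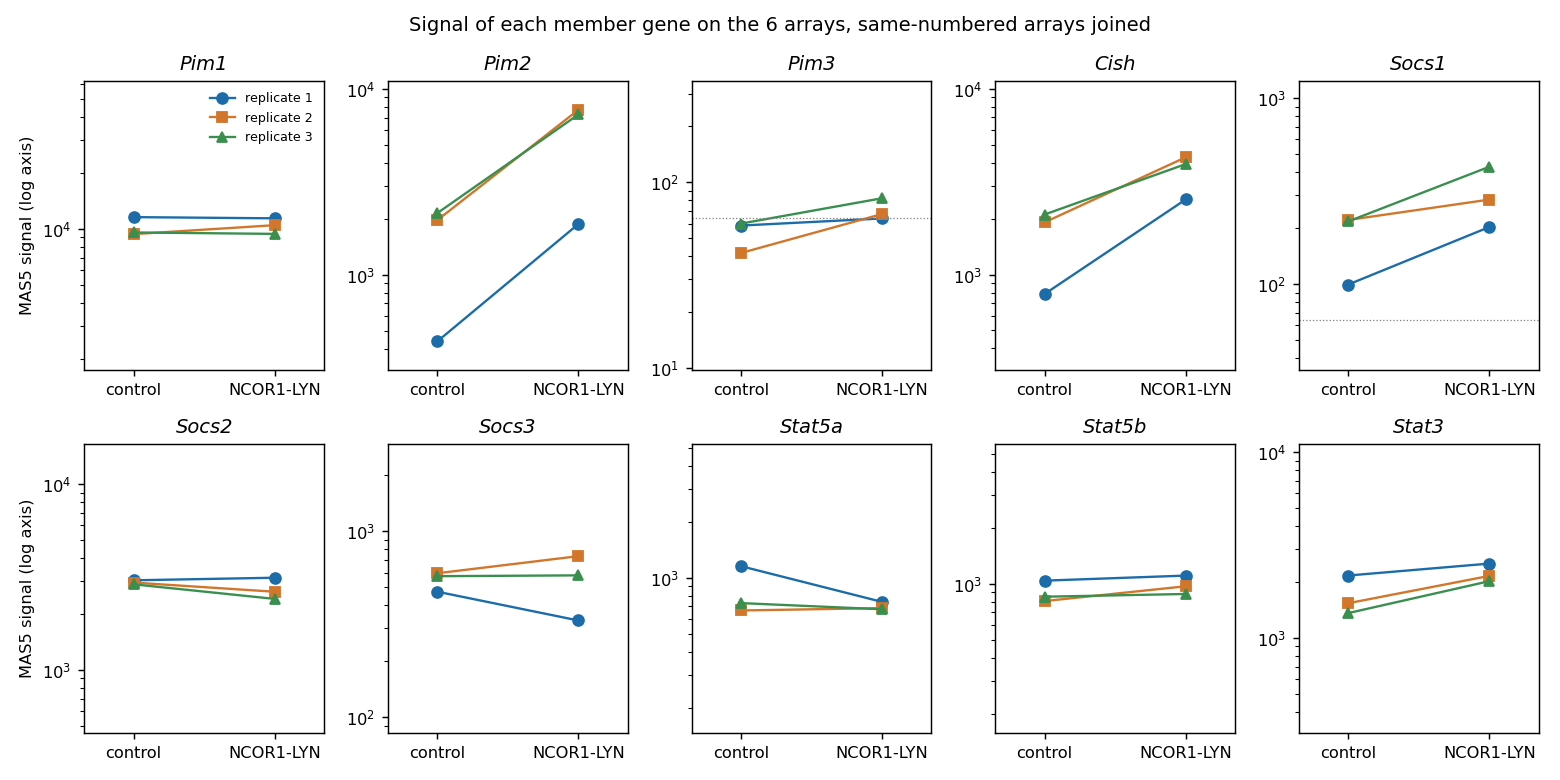
MAS5 signal (log axis, each panel spanning the same 36-fold range) of the probe set that stands for each of the 10 genes in control and NCOR1-LYN cells; colours and symbols mark replicates 1, 2 and 3, lines join same-numbered arrays and the dotted line is the offset of 64. The Pim2 lines run parallel at different heights, from 437 to 1873 in replicate 1 and from 1964 to 7708 in replicate 2.

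Pim2 encodes a constitutively active serine/threonine kinase. Its signals were 437, 1964 and 2143 in control replicates 1, 2 and 3, and 1873, 7708 and 7278 in the NCOR1-LYN replicates. The NCOR1-LYN array of replicate 1 lay just under controls 2 and 3, so the groups overlapped, and within each number the NCOR1-LYN array was higher. The ratio of signals was 4.28, 3.92 and 3.40 in pairs 1, 2 and 3. The log2 fold change was 1.87 ± 0.10 (SE) with the block (95% interval 1.65 to 2.10, limma adjusted p = 0.00151) and 1.87 ± 0.71 without it (adjusted p = 0.952). Pim2 had the smallest p of all 10916 genes with the block and ranked 367 without it. The arrays carry 1 probe set for Pim2, so no other probe set could be compared.

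Pim1, the founding member of the kinase family, gave bright signals of 11581, 9382 and 9576 in controls and 11411, 10481 and 9409 with NCOR1-LYN. The groups overlapped, and the pairs differed by −0.02, 0.16 and −0.03 on the log2 scale. With the block the change was 0.04 ± 0.09 (95% interval −0.18 to 0.25, limma adjusted p = 0.903), an interval that lies below the interval of Pim2 in that fit. Without the block the intervals of Pim1 (−0.28 to 0.35) and Pim2 (0.21 to 3.54) overlapped. The dimmer Pim1 probe set had 0.01 ± 0.10 in the probe set fit with the block.

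Pim3, the third kinase gene, was near the floor in all 3 of its probe sets, whose means ran from 27.0 to 62.3. Its brightest probe set had 58.5, 41.6 and 59.98 in controls and 63.9, 67.5 and 82.1 with NCOR1-LYN, so the groups did not overlap, but the change of 0.21 ± 0.15 without the block did not pass (limma adjusted p = 0.999). This probe set belongs to a kind that can hybridise to other transcripts, and its neighbours on the same gene had changes of −0.02, −1.08 and −0.26 in a probe set below the filter and 0.24, −0.18 and −0.11 in the remaining probe set, for pairs 1, 2 and 3. The 3 Pim3 probe sets thus shared no direction.

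**Figure D2:**
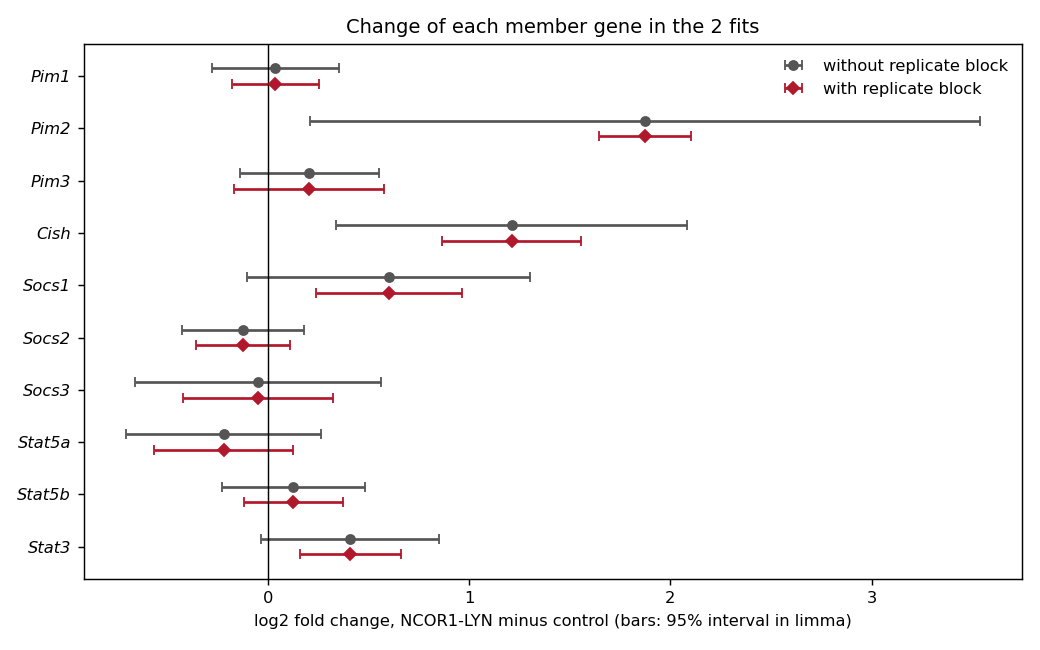
Log2 fold change of each of the 10 genes, NCOR1-LYN minus control, with its 95% interval in limma without (circles) and with (diamonds) the replicate number as a block, 3 arrays per group. With the block the intervals of Pim2 (1.65 to 2.10) and Cish (0.87 to 1.56) lie farthest from 0.

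Cish, the founding SOCS family member, encodes a protein that is induced by STAT5 and competes with it at the receptor. Its signals were 786, 1910 and 2104 in controls and 2536, 4276 and 3931 with NCOR1-LYN. All NCOR1-LYN arrays were above all controls, which was so for 2 of the 10 genes (Pim3 and Cish) and for 5.18% of all genes. The log2 fold change was 1.21 ± 0.15 with the block (95% interval 0.87 to 1.56, limma adjusted p = 0.0221) and 1.21 ± 0.37 without it (adjusted p = 0.718). By pair the change was 1.61, 1.14 and 0.88. The pair of replicate 1 exceeded the others by 0.60 ± 0.13, and this difference passed in limma (adjusted p = 0.0193).

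Socs1 encodes an inhibitor of JAK kinases. It was dim, at 99.4, 221 and 217 in controls and 203, 285 and 428 with NCOR1-LYN. The groups overlapped through replicate 1, while each NCOR1-LYN array was above its same-numbered control. The changes of 0.71, 0.29 and 0.81 gave 0.60 ± 0.15 with the block, which did not pass over all genes (limma adjusted p = 0.179).

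Socs2, which encodes a brake on growth hormone and cytokine receptors, passed an adjusted p of 0.05 in neither fit. Its signals of 3036, 2951 and 2888 in controls and 3134, 2634 and 2411 with NCOR1-LYN overlapped. The change was −0.12 ± 0.10 with the block (95% interval −0.36 to 0.11, adjusted p = 0.696 in limma), so its interval lies below that of Cish. The next brightest Socs2 probe set, with a mean signal of 1705, had changes of 0.10, −0.21 and −0.23 by pair, close to the 0.04, −0.16 and −0.25 of the brightest. The other 4 probe sets had means of 23.9 to 100.3, 1 of them below the filter, and none of those tested passed.

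Socs3, best known as the feedback inhibitor of STAT3-activating cytokine receptors, had 3 probe sets that shared their direction in each pair, but whose mean changes differed in sign. The brightest had 473, 595 and 573 in controls and 331, 735 and 579 with NCOR1-LYN, a change of −0.05 ± 0.16 with the block (limma adjusted p = 0.926). The dimmest, the only one of the 3 not of the cross-hybridising kind, had 243, 145 and 186 in controls and 210, 281 and 338 with NCOR1-LYN, and 0.41 ± 0.20 (adjusted p = 0.488 with the block over 27022 probe sets). All 3 were lower in the replicate 1 pair, by changes of −0.44, −0.72 and −0.16, and higher in the other pairs, by 0.01 to 0.72. The difference of the replicate 1 pair passed for the middle probe set alone in the probe set fit (−1.23, limma adjusted p = 0.0108).

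**Figure D3:**
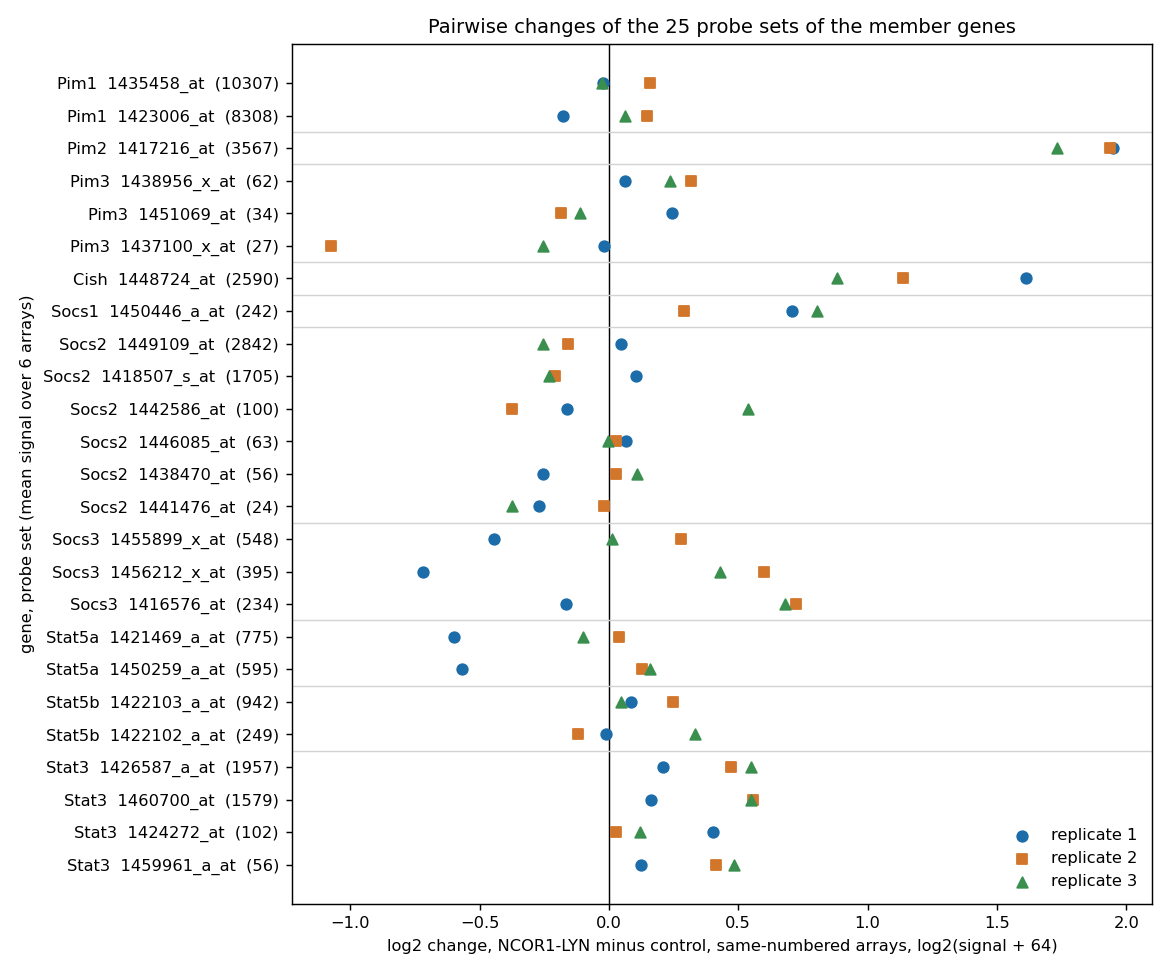
Log2 change, NCOR1-LYN minus control, between same-numbered arrays for all 25 probe sets of the 10 genes, with the probe set and its mean signal at the left; colours and symbols mark the replicate. The points of Pim2 (1.73 to 1.95) lie close together, while the 3 Socs3 probe sets have replicate 1 below 0 and replicates 2 and 3 above it.

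None of the 3 STAT genes passed an adjusted p of 0.05 over all arrays in the fit without or with the block. When limma weighted the arrays, Stat3 passed (0.48, limma adjusted p = 0.0205) and Stat5a and Stat5b did not. That setting called 4.6% of all genes, against 0.0824% without weights or block. Stat5a had 1153, 666 and 730 in controls and 741, 686 and 676 with NCOR1-LYN, so control 1 stood above the other 5 arrays. The change of −0.22 ± 0.15 with the block did not pass (95% interval −0.57 to 0.13, limma adjusted p = 0.629). It was −0.60 in the pair of replicate 1 against 0.04 and −0.10 in the others, and this difference passed among genes (−0.57, limma adjusted p = 0.0473). In the fit over probe sets the same probe set did not pass (adjusted p = 0.0824), while the dimmer one did (−0.71, adjusted p = 0.0456). Cish and Stat5a were thus 2 of 10 genes whose replicate 1 pair differed from the others, against 12% of all genes tested. The count of 2 was 0 without the filter on dim genes or without an intensity trend in limma. It was 3 with the mean over all probe sets of a gene.

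Stat5b, the close homologue of Stat5a, had 1038, 806 and 851 in controls and 1106, 969 and 880 with NCOR1-LYN. The groups overlapped and the change was 0.13 ± 0.10 with the block (95% interval −0.12 to 0.37, limma adjusted p = 0.705). A dimmer Stat5b probe set, with a mean signal of 249, had changes of −0.01, −0.12 and 0.33 by pair.

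Stat3, which encodes the factor activated by interleukin 6 and related cytokines, had 2164, 1536 and 1359 in controls and 2510, 2155 and 2018 with NCOR1-LYN. The groups overlapped because control 1 was high, and each NCOR1-LYN array was above its same-numbered control. The changes of 0.21, 0.47 and 0.55 gave 0.41 ± 0.11 with the block (limma adjusted p = 0.19). The next brightest Stat3 probe set had 1703, 1168 and 1182 in controls and 1915, 1751 and 1758 with NCOR1-LYN, without overlap, and 0.42 ± 0.12. All 4 Stat3 probe sets were higher in all 3 pairs, but the remaining ones were dim, with mean signals of 102 and 55.9.

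Pim2, Cish and Socs1 were lower on the replicate 1 array than on the other arrays of its group, in both groups. Control 1 minus the mean of controls 2 and 3 was −2.08 for Pim2, −1.28 for Cish and −0.79 for Socs1 on the log2 scale. NCOR1-LYN 1 minus the mean of NCOR1-LYN 2 and 3 was −1.96, −0.68 and −0.63 for the same genes. For the brightest Socs3 probe set, whose change between groups was near 0, these differences were −0.27 in controls and −0.86 with NCOR1-LYN. In the 2 dimmer Socs3 probe sets they were 0.10 and 0.43 in controls and −1.13 and −0.44 with NCOR1-LYN. For Stat5a, Stat3, Stat5b and Pim1 control 1 lay above controls 2 and 3, by 0.68, 0.56, 0.30 and 0.29. The Pim2 signal of NCOR1-LYN 1 was 0.912 times the mean of controls 2 and 3. With both replicate 1 arrays left out, which leaves 2 arrays per group, 3 of the 10 genes rose in limma, against 3.18% of all genes called as higher. These were Pim2 (1.84 ± 0.07, adjusted p = 5.73e-07), Cish (1.01 ± 0.07, adjusted p = 4.68e-05) and Stat3 (0.51 ± 0.08, adjusted p = 0.00442). At the level of probe sets 6 of the 23 tested passed in that fit, against 3.59% of all probe sets, and they included both bright Stat3 probe sets and the 2 dimmer Socs3 probe sets (0.51 and 0.70, adjusted p = 0.0361 and 0.0412). Beta-actin, whose 3′ over 5′ signal ratio is a measure of RNA integrity, had ratios of 1.17 and 1.15 on the replicate 1 arrays and 1.19 to 1.24 on the others. Its part in the difference of replicate 1 was not tested.

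Genes upstream of and beside these 10 were described from 8 pathway lists with 69 names, of which 60 passed the filter on dim genes. Over these lists limma called 1 gene without the block (Osm, higher) and 2 with it (Osm higher and Id2 lower), the latter against 0.824% of all genes called in either direction. The median change of the 60 was −0.02.

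Of the receptor chains 5 of 10 were measured and 0 passed, with a median of 0.17. The medians by pair were −0.68, 0.47 and 0.35 in pairs 1, 2 and 3. Csf2rb, the shared beta chain of the interleukin 3 receptor, had the largest change, 0.35 ± 0.30 with the block. With both replicate 1 arrays left out, limma called 3 of the 5 as higher, against 3.18% of all genes. These were Csf2rb (0.87, adjusted p = 0.00056), Csf2rb2 (0.85, adjusted p = 9.06e-05) and Il4ra (0.41, adjusted p = 0.0199). Of the 4 JAK kinases, all measured, 0 passed. Jak2 had the largest change among them, 0.34 ± 0.21 with the block, from 1817, 1181 and 925 in controls to 1451, 1636 and 1776 with NCOR1-LYN. Its changes of −0.31, 0.45 and 0.90 differed between the replicate 1 pair and the others (−0.99, limma adjusted p = 0.0109), as did those of Csf2rb (−1.56, adjusted p = 0.000873). Without the replicate 1 arrays limma called 2 of the 4 JAK kinases as higher, Jak2 (0.67, adjusted p = 0.00502) and Jak3 (0.46, adjusted p = 0.0472).

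Of the other STAT genes 3 were measured and 0 passed. Stat4 had the largest change, −0.25 ± 0.11 with the block. Of the other SOCS genes Socs4 to Socs7, all 4 measured, 0 passed, and Socs5 had the largest change, −0.32 ± 0.11, with Socs4 at 0.30 ± 0.10. Of the 11 PIAS, phosphatase and adaptor genes that restrain the pathway, all measured, 0 passed, with a median of 0.03. Cblb, a ubiquitin ligase gene, had the largest change, −0.31 ± 0.15 with the block.

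The other STAT5 targets went both ways. Of 15 measured, 6 had positive and 9 negative changes, with a median of −0.16. Osm, which encodes the cytokine oncostatin M, rose from 616, 644 and 597 to 1301, 1521 and 1541, with changes of 1.005, 1.16 and 1.28 (1.15 ± 0.11 with the block, limma adjusted p = 0.01002). Id2, which encodes an inhibitor of basic helix-loop-helix factors, fell in the blocked fit, from 652, 969 and 977 to 189, 541 and 447, with changes of −1.50, −0.77 and −1.03 (−1.10 ± 0.16, limma adjusted p = 0.0358). For both, the groups did not overlap, which was so for 7 of the 60 list genes and for 1226 of all 10916 genes tested. Lif and Myc, also among the 15, were higher with NCOR1-LYN without overlap and passed in neither fit. With both replicate 1 arrays left out, limma called 4 of the 15 as higher and 7 as lower, against 6.82% of all genes called in either direction. Leaving out any single array but NCOR1-LYN 1 left 0 calls in the pathway lists without the block, and leaving out the pair of replicate 2 or 3 left 0 with it.

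Of 9 measured STAT3 targets 0 passed, with a median of 0.02. The largest change, 1.17 ± 0.69 with the block, was that of Lcn2, the gene of the iron carrier lipocalin 2, and it came from a single array. Lcn2 had 1457 on NCOR1-LYN 1 and 39.0 to 56.8 on the other 5 arrays. Of 9 genes of PIM substrates, all measured, 0 passed, with a median of −0.09 and the largest change in Cdkn1b, a cell cycle inhibitor gene (−0.19 ± 0.12). The plot of pathway lists shows these values beside the 10 genes.

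**Figure D4:**
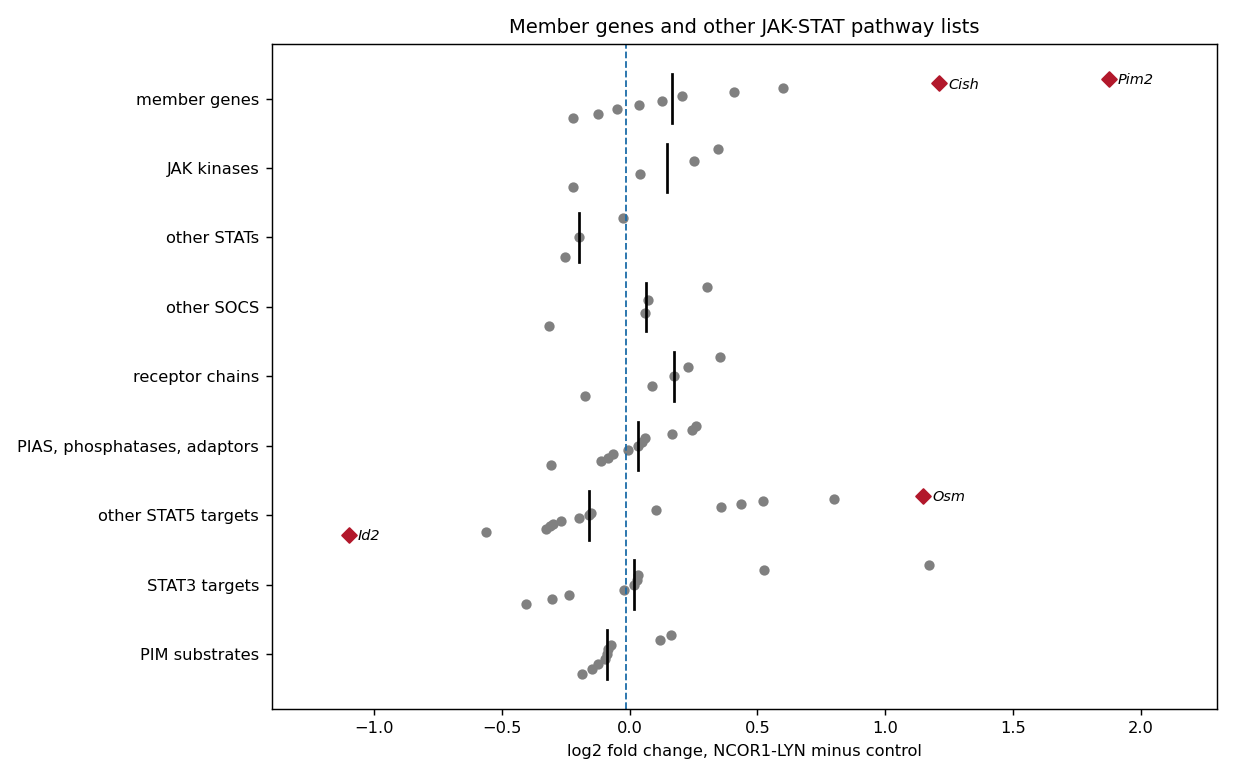
Log2 fold change, NCOR1-LYN minus control, of the measured genes of each list (points, spread vertically for legibility only); red diamonds passed an adjusted p of 0.05 in limma with the replicate block, black bars are list medians and the dashed line is the median of all genes tested (−0.01). The red diamonds of Pim2, Cish and Osm lie to the right and that of Id2 to the left. The other list genes lie between −0.56 (Il2ra) and 1.17 (Lcn2), so Lcn2, which did not pass, lies just beyond Osm (1.15).

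The genes nearest in pattern to Pim2 and to Cish were found by the root mean square difference of log2 values, each centred on its mean over the 6 arrays. Nearest to Pim2 were Epx (eosinophil peroxidase, 0.38), Il6 (the cytokine interleukin 6, 0.47), Svs2 (0.56), Ccdc34 (0.56) and St8sia4 (a sialyltransferase, 0.59), against a median of 1.36 over all genes. Cish was number 6 in that order, at 0.60, but from Cish the same distance made Pim2 number 626. Nearest to Cish were the AP-1 gene Jun (0.23), Ephx2 (an epoxide hydrolase, 0.23), Angptl8 (0.28), Prkch (a protein kinase C, 0.29) and Nkg7 (0.29), against a median of 0.81. These 10 genes were chosen for a pattern that includes the difference between groups, so their low signal in control 1 and their higher signal with NCOR1-LYN in each pair follow from the choice and were not tested.

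**Figure D5:**
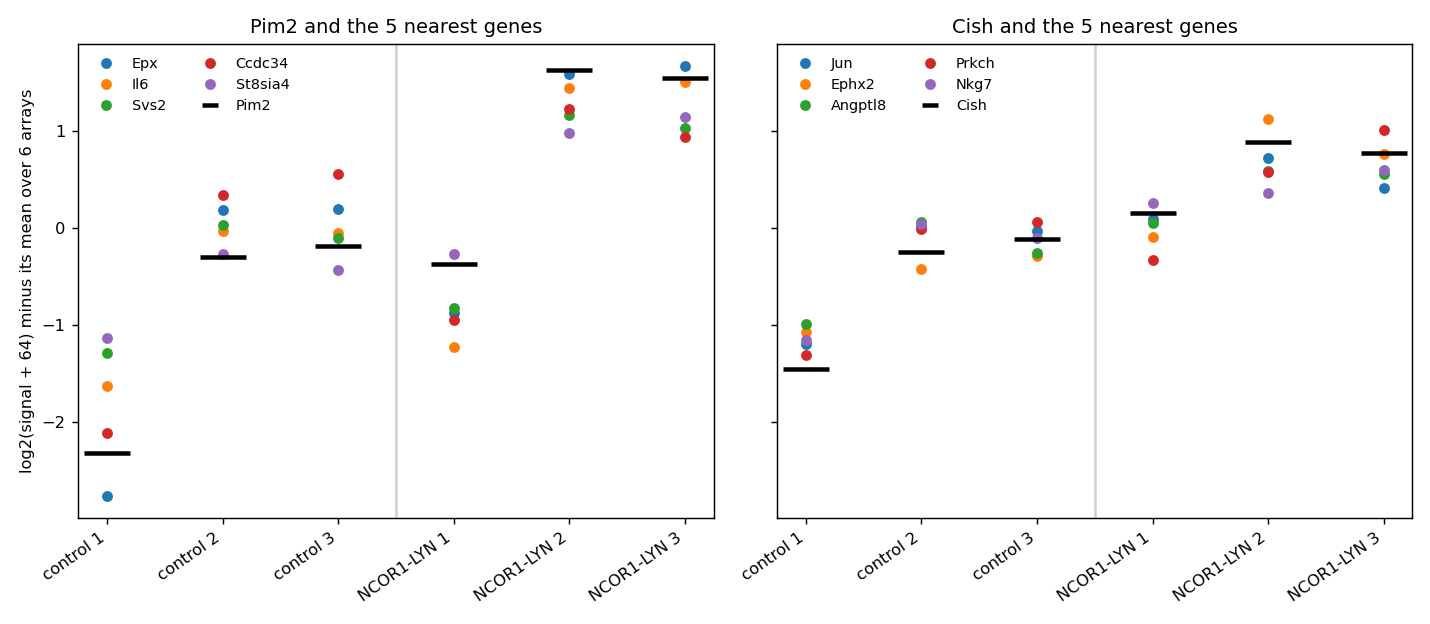
Log2(signal + 64) minus its mean over the 6 arrays, for Pim2 (left, bars) and Cish (right, bars) and the 5 genes nearest to each (points), by array. Control 1 is the lowest array for all of them, and NCOR1-LYN 1 lies below NCOR1-LYN 2 and 3.

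Markers of blood lineages were followed beside these results. Of 10 B lineage markers on the array 7 were under a signal of 64 on all arrays, among them Cd79a, Ebf1, Vpreb1, Il7r and Rag1. Cd79b, an antigen receptor chain gene, had 403 to 577, and Pax5 and Igll1 rose above 64 on some arrays. Of 12 myeloid and mast cell markers 8 were measured. With the block 2 of these rose in limma (Ltf and Epx) and 0 fell. Over all genes 0.266% were called as higher and 0.559% as lower in that fit. Without the block 1 marker rose (Ltf, limma adjusted p = 0.0175), against 0.0824% of all genes called in either direction. The mast cell gene Ms4a2 had a change of −0.17, and Elane, Cpa3, Kit and Mcpt8 were below the filter, with Mcpt8 lower on all NCOR1-LYN arrays than on any control (means of 6.83 and 41.3). The summed signal of the 12 was 2507 to 5345 in controls and 11269 to 15558 with NCOR1-LYN, and the brightest of them with NCOR1-LYN were Ngp, Prg2, Fcer1a and Epx, with means of 4439, 3295, 3234 and 1470. Their part in the Pim2 and Cish results was not tested. Markers of T and NK cells and of fibroblasts were under 64 on all arrays in 5 of 6 genes each. Of 4 erythroid and megakaryocyte markers on the array 2 were measured and 0 passed, with summed signals of 5379 to 11044 in controls and 4127 to 8388 with NCOR1-LYN.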

How the data were processed

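Total RNA of 6 Ba/F3 samples was hybridised to Affymetrix mouse arrays. The deposited values are probe set intensities, which the authors computed using MAS5, as named in the submitters' processing notes (version not given in the sources used here). In the values, every array has a mean of 500 once 2% of probe sets at either end are trimmed. Detection calls did not enter. Probe sets were named from GEO's platform annotation, and all 10 symbols were unchanged in RefSeq.

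Signals were used as log2(signal + 64). Each gene was represented by its brightest probe set with 1 symbol, genes below the 40th percentile (a signal of about 47.0) were left out, and the 10916 others entered a fit in limma 3.58.1, under R 4.3.3 (lmFit, eBayes with an intensity trend, two-sided, Benjamini-Hochberg over all genes, adjusted p of 0.05). A parallel fit took 27022 probe sets above a signal of 32.5. The alternative fit used the replicate number as a block, and an interaction compared the replicate 1 pair with the others, each with 2 residual degrees of freedom. Array deviations from group means correlated across genes at 0.62, 0.41 and 0.44 between same-numbered arrays, and same-numbered arrays were treated as pairs, although the labels state no shared day. Replicates 2 and 3 alone gave no sign of pairing (r = −0.03), since a replicate 1 that stands apart in both groups raises all 3 values. The number of arrays limits the precision, and 3 against 3 arrays allow no exact permutation p below 0.1. Genes named are all 10 members, list genes called in either fit or else the largest change of a list, and the 5 nearest patterns. A few other list genes are named for a call without the replicate 1 arrays, for groups that did not overlap, or beside a gene so named. The genes and lists were chosen with earlier results of these data known. Names of the lists without a single-symbol probe set were not analysed here.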

Additional observations from a re-analysis of the deposited data

How the results depend on the processing

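The direction of Pim2, Cish, Socs1, Socs2, Stat5b and Stat3 held under all alternatives that measured them, from 1.18 to 2.53 for Pim2 and 0.78 to 1.46 for Cish on the log2 scale. The count of 0 called genes among the 10 became 2 with the replicate block and 2 with replicate 1 against replicates 2 and 3 as the block. It was 3 with array weights and 3 when both replicate 1 arrays were dropped. With arrays or pairs left out in turn it ran from 0 to 4, the 4 coming from the blocked fit without the pair of replicate 1. The share of all genes called rose in the same settings, from 0.0824% to 0.824%, 2.4%, 4.6%, 6.82% and 10.5% in that order. The highest counts of probe sets and list genes, given below, came from that last setting. Without the pair of replicate 2 the blocked fit of limma called 0 genes in all. Called probe sets of the 10 genes went from 0 to 2 with either block, 3 with array weights and 6 when replicate 1 was dropped (3.59% of all probe sets), and from 0 to 7 with arrays or pairs left out. Called genes of the pathway lists went from 1 to 2 with the block, 5 with the replicate 1 block, 12 with array weights and 19 when replicate 1 was dropped, to 0 without the filter, with it at the 60th percentile, with quantile normalization or with arrays centred on their median, and from 0 to 25 with arrays or pairs left out. The 2 genes whose replicate 1 pair differed became 1 at an offset of 16 and 1 with quantile normalization. The count was 0 without the filter and 0 without an intensity trend. It was 3 with the mean over all probe sets of a gene, and 1 to 3 with arrays left out. These alternatives and the replicate 1 block were chosen after the data were seen. Small changes reversed: Pim3 was −0.088 as the mean of its probe sets, Socs3 was 0.16 as such a mean, 0.086 with array weights and 0.15 when replicate 1 was dropped, and with arrays left out Socs3 ran from −0.27 to 0.24, Pim1 from −0.029 to 0.13 (−0.023 with the block and without pair 2) and Stat5a from −0.36 to 0.0058. The cause was not tested. Signals near 64 or below limit what can be said of Pim3 and the dim Socs2 probe sets.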
